A study of Drosophila melanogaster with 12 samples.

Results

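The cytoplasmic ribosomal protein genes were taken as every row of the deposited fly ovary count table whose symbol begins with RpL or RpS followed by a digit or by P. 92 of the 15446 listed genes met this rule, 54 with large-subunit and 38 with small-subunit names. 88 of the 92 passed the filter on low counts and were tested. The other 4, RpL10Aa, RpS10a, RpS28-like and RpS28a, had between 0 and 5 counts in every library, and RpS28a had 0 in all 12.

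The ribosome is built from ribosomal RNA and a fixed set of proteins, most of them needed in equal numbers, and the mRNAs for these proteins are among the most abundant in a growing cell. The small subunit reads the mRNA, and the large subunit joins amino acids and carries a flexible protein stalk that recruits translation factors. In flies, losing a copy of many of these genes gives the Minute phenotype of slow growth, thin bristles and poor fertility, and a few of the genes exist in duplicated copies, some of which are used mainly in germ cells. A nurse cell makes large amounts of ribosomes for the egg, so ovaries are rich in these transcripts.

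The series asked what happens to the ovary transcriptome when Nxf2, an RNA export factor relative that works with Panoramix (Panx) in piRNA-guided transposon silencing, is lost. 12 ovary RNA libraries from Drosophila melanogaster fell into 6 groups of 2. They were a germline-specific nxf2 knockdown and the wild-type stock attp2, CRISPR/Cas9 nxf2 -/- mutants and the wild-type stock W1118, and nxf2 -/- flies with Panx tethered to FL10B beside nxf2 +/- flies with the same tethered Panx. The labels state neither what FL10B stands for nor the unit of the age given as 3-5. All flies were fed yeast and stocks were kept at 25°C. The names alone pair attp2 with the knockdown and W1118 with the mutant, and the labels do not say whether replicates were separate animals, so the p-values measure the spread between these libraries, which may be technical. The germline driver line and the number of animals or mutant clones in each group were not given either.

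Total counts ran from 3811630 in W1118 replicate 1 to 11260925 in attp2 replicate 2. The nxf2 transcript itself stood at 19.0 and 17.2 CPM (counts scaled to a common library size, with TMM factors) in the knockdown, against 36.1 and 49.2 CPM in attp2, and at 29.9 and 33.6 CPM in the mutant, against 69.5 and 68.8 CPM in W1118. With tethered Panx it stood at 30.2 and 30.1 CPM in the mutant, against 34.6 and 35.8 CPM in the heterozygote (log2 difference -0.22, SE 0.15, adjusted p = 0.334, edgeR), so its RNA does not check that label. The labelled tissue was checked against germline markers, whose 12 genes summed to between 4016 and 5734 CPM in each library, while the 7 testis genes summed to at most 9.52 CPM. Chorion and vitelline membrane genes, made by late follicle cells, differed widely between groups, and their summed levels are given with each comparison. In whole ovaries, fewer cells of a type and less RNA per cell cannot be told apart.

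Ribosomal protein mRNAs took between 5.14% and 9.11% of all counts in a library. Their share was 7.23% and 7.85% in the knockdown, against 8.21% and 9.11% in attp2. It was 6.58% and 7.08% in the mutant, against 5.34% and 5.14% in W1118. With tethered Panx it was 7.48% and 7.57% in the mutant, against 7.21% and 7.49% in the heterozygote. The knockdown libraries lay below their wild type, the mutant libraries above theirs, and the tethered pair touched. The exact permutation test over 2 against 2 libraries cannot give a two-sided p below 0.333, so with that test none of these differences could pass 0.05, and no other test of the shares was run. The widest gap was between the wild-type stocks, at 5.24% ± 0.14 in W1118 and 8.66% ± 0.63 in attp2 (SD, n = 2 each).

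**Figure D1:**
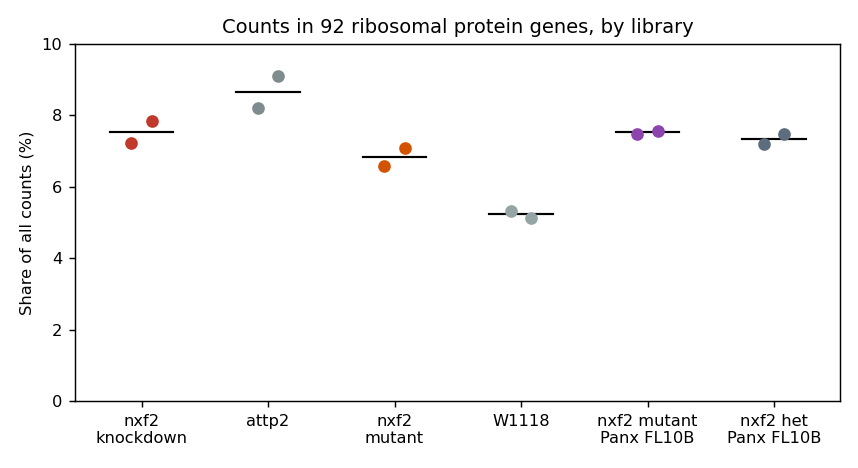
Share of all counts (%) that fell in the 92 ribosomal protein genes; each point is 1 library and each line the mean of 2. The W1118 libraries, at 5.34% and 5.14%, lie below every other library, and attp2, at 8.21% and 9.11%, above.

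The largest differences among these genes separated the wild-type stocks rather than the nxf2 groups. Of 88 tested genes, 61 were lower and 9 higher in W1118 than in attp2 (edgeR's quasi-likelihood test, Benjamini-Hochberg adjusted over all 8638 tested genes, called below 0.05). That is 69.3% lower and 10.2% higher, against 30.3% and 25.2% of all tested genes (55.5% in either direction). The median log2 difference was -0.72 for these genes and -0.07 for all tested genes, and 37 genes were at least 2-fold lower. Among the 2389 genes with a mean of at least 100 CPM, a class that holds 81 of the ribosomal protein genes, 26% were lower and 40.3% higher. Both W1118 libraries lay below both attp2 libraries for 64 genes and above them for 13, against 41.2% and 35.5% of all tested genes.

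RpL34b, a large-subunit protein with a duplicate copy, stood at 365.4 and 328.5 CPM in W1118, against 1683 and 2190 CPM in attp2 (log2 difference -2.48, SE 0.17, adjusted p = 1.36e-07, edgeR). RpS7, a small-subunit protein, stood at 940.8 and 908.4 CPM in W1118, against 4410 and 4930 CPM in attp2. Every W1118 library lay below every attp2 library for both genes. RpL36, RpS24 and RpL24 differed by a log2 of -2.30, -2.14 and -2.08.

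9 genes were higher in W1118. RpS28b, which sits near the mRNA exit of the small subunit, stood at 1032 and 1060 CPM in W1118, against 304.1 and 318.0 CPM in attp2 (log2 difference 1.75, SE 0.12, adjusted p = 7.69e-08, edgeR). RpL41, the shortest ribosomal protein, stood at 1641 and 1943 CPM in W1118, against 674.0 and 785.3 CPM in attp2. RpLP2, a protein of the acidic stalk, stood at 971.5 and 901.4 CPM in W1118, against 481.0 and 433.1 CPM in attp2. Of the other stalk proteins, RpLP0 was lower by a log2 of -0.70, and RpLP1, at 0.08, was not called. sta and Rack1, small-subunit components named outside the RpL and RpS scheme, were lower in W1118, by -0.94 and -0.53 on the log2 scale. By the annotation used for names, 17 of the 20 tested genes on arm 3R were lower in W1118, with a median of -1.27. On arm 3L it was 12 of 14 (median -0.67), on 2L 12 of 18 (-0.72) and on 2R 11 of 21 (-0.43). On the X it was 8 of 14 (-0.47), and the 1 gene on chromosome 4 was lower (-0.63). Shares of all tested genes on each arm are not given here. Differences between arms were not tested. Chorion and vitelline membrane RNA was at 19220 and 18220 CPM in W1118, against 30020 and 30170 CPM in attp2, with 8 of 17 genes higher, 7 lower and none at 0. Summed RNA of 5 listed hemocyte genes was 354.6 and 359.7 CPM in W1118, against 648.7 and 489.1 CPM in attp2, with none at 0. In attp2, vkg, Cg25C and srp averaged 265.9, 172.6 and 123.2 CPM, but Hml and Pxn 3.14 and 4.07 CPM. The sum was thus mostly vkg, Cg25C and srp, and is not read as an amount of hemocytes. The part of both in the result was not tested.

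**Figure D2:**
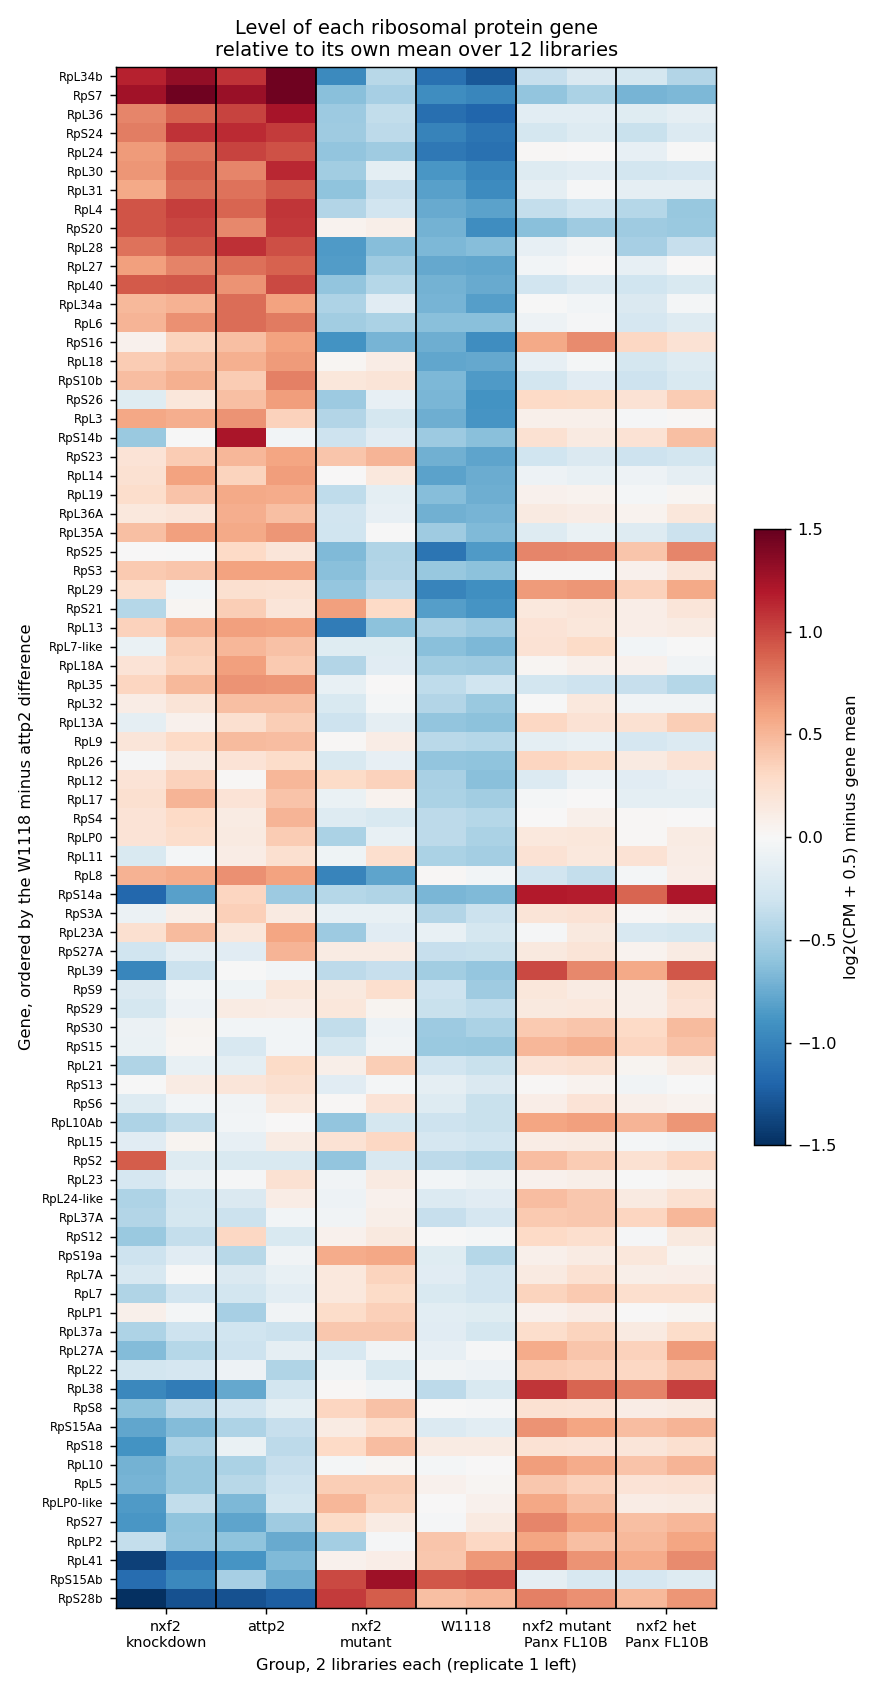
Level of 81 of the 85 ribosomal protein genes with a mean of at least 10 CPM (rows) in 12 libraries (columns), as log2(CPM + 0.5) minus the gene's mean over all libraries; red is above and blue below that mean, and rows run from the lowest to the highest difference of W1118 and attp2. The knockdown and attp2 columns resemble each other from RpL34b at the top (-2.48) to RpS28b at the bottom (1.75), and the other 4 groups show another pattern.

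The 6 groups fell into 2 sets by which ribosomal protein genes were the most abundant. Across 85 genes with a mean of at least 10 CPM, Spearman's rho between group means was 0.99 for the knockdown and attp2, and 0.94 to 0.99 among the mutant, W1118 and both tethered groups. Between the sets it was 0.73 to 0.75. These values describe points that share libraries and gene lengths, and no p is attached to them. Stock, library preparation and sequencing run cannot be told apart here, because the labels record no run or preparation date and each set has its own stocks.

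Per kilobase of annotated exon, RpS20, a protein of the small subunit's head, was the most abundant in the knockdown (8036 CPM per kb), attp2 (7662) and the mutant (4315). RpL41 led in W1118 (5600 CPM per kb), the tethered mutant (6666) and the tethered heterozygote (6007). Per kilobase, RpS7 ranked 2 in the knockdown and in attp2, but between 22 and 28 in the other 4 groups. Of the 85 genes, 56 had their lowest group mean in W1118 and 21 in the knockdown, while 38 had their highest in attp2 and 23 in the tethered mutant. The range of group means was widest for RpL34b, at a log2 of 2.47, and for RpS28b, at 2.45, and its median over the genes was 1.18. It was smallest for RpL23, at 0.27, followed by RpS13 at 0.39 and RpS6, the substrate of S6 kinase, at 0.41. RpL23 averaged 1540 ± 130 CPM in the knockdown and 1865 ± 226 CPM in attp2, 1782 ± 161 CPM in the mutant and 1654 ± 30.3 CPM in W1118, and 1822 ± 20.8 CPM in the tethered mutant and 1753 ± 43.0 CPM in the tethered heterozygote (SD, n = 2 each). RpL23 was not called in any of these comparisons.

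**Figure D3:**
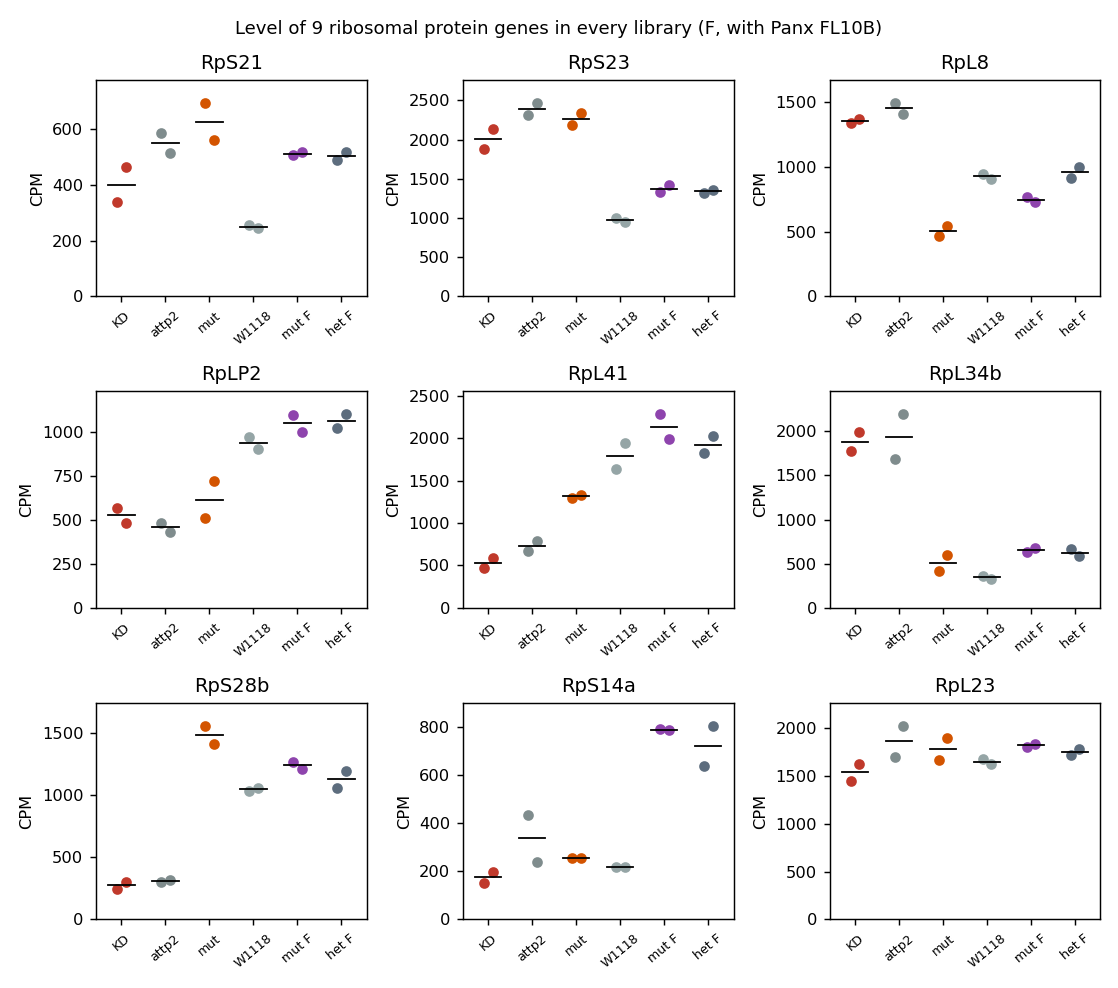
Level in CPM of 9 ribosomal protein genes in each library, chosen after their values were seen; points are libraries, lines are means of 2, and KD, mut, mut F and het F stand for the nxf2 knockdown, the mutant, and the mutant and heterozygote with tethered Panx. RpS21 and RpS23 are higher in the mutant than in W1118, RpL8 is lower, and RpL23 stays between 1448 and 2025 CPM in all 12 libraries.

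Germline knockdown of nxf2 was accompanied by lower levels of some ribosomal protein mRNAs. Of 88 tested genes 14 were lower and 0 higher in the knockdown than in attp2 (edgeR, adjusted p below 0.05), and 40 had an unadjusted p under 0.05. DESeq2 called 19 lower and 0 higher, against 447 lower and 625 higher over all genes. With edgeR the called share was 15.9%, against 15.7% of all tested genes in either direction, 7.70% lower and 8% higher. The share in both directions was therefore close to the background, and the direction was one-sided. Among genes with a mean of at least 100 CPM, 5.02% were lower and 15.8% higher. The median log2 difference was -0.18, against -0.03 for all tested genes, and 72 of 88 values were negative. All 4 libraries kept knockdown below attp2 for 47 genes and above it for 3, against 27.0% and 22.7% of all tested genes.

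The called genes came from both subunits, 8 large and 6 small. On the small subunit, RpS14a, a protein of its platform, stood at 153.1 and 198.2 CPM in the knockdown, against 435.1 and 238.9 CPM in attp2 (log2 difference -0.94, SE 0.23, adjusted p = 0.0231, edgeR). The attp2 libraries differed from each other almost as much as the groups did. RpS26, which lies along the mRNA exit channel, stood at 349.2 and 444.5 CPM in the knockdown, against 540.0 and 611.9 CPM in attp2 (-0.54, SE 0.15, adjusted p = 0.0256, edgeR). RpS12, which in flies takes part in the competition of cells that lack a ribosomal protein gene copy, was lower by a log2 of -0.52, and RpS21 by -0.45.

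On the large subunit, RpL39, which lines the exit tunnel of the nascent chain, stood at 75.6 and 118.9 CPM in the knockdown, against 148.7 and 144.9 CPM in attp2 (-0.59, SE 0.18, adjusted p = 0.0386, edgeR). RpL38 stood at 196.2 and 184.4 CPM in the knockdown, against 225.2 and 314.9 CPM in attp2 (-0.50, SE 0.15, adjusted p = 0.0333, edgeR). RpL41 was lower by a log2 of -0.46 and RpL10Ab, the protein of the L1 stalk, by -0.40. No called gene reached a 2-fold difference. RpS2, at the mRNA entry, stood at 606.6 and 283.2 CPM in the knockdown, against 275.7 and 276.8 CPM in attp2 (adjusted p = 0.13, edgeR), high in 1 knockdown library.

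The size of the knockdown difference moved with single libraries. Without knockdown replicate 1 the median log2 difference was -0.11, against -0.02 for all tested genes. Without knockdown replicate 2 it was -0.29, against -0.07. Without attp2 replicate 1 it was -0.22, against -0.05, and without attp2 replicate 2 it was -0.15, against 0.01. Counts of calls moved in these fits too, over all tested genes as well. A fit of these 4 libraries alone called 0 ribosomal protein genes lower. Of all 8224 genes tested in that fit, 64 were lower and 124 higher. In the knockdown, replicate 2 was above replicate 1 for 78 of 85 genes, with a median log2 gap of 0.16, close to the size of the difference itself. Chorion and vitelline membrane RNA was at 52730 and 52920 CPM in the knockdown, against 30020 and 30170 CPM in attp2, with 12 of 17 genes higher and none at 0, and its part in the result was not tested.

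The nxf2 mutant carried more ribosomal protein mRNA than W1118. Of 88 tested genes 52 were higher and 3 lower (edgeR, adjusted p below 0.05), or 59.1% and 3.41%, against 15.0% and 11.8% of all tested genes (26.8% in either direction). Among genes with a mean of at least 100 CPM the same shares were 13.6% and 21.9%. The median log2 difference was 0.40, against 0.04 for all tested genes. Both mutant libraries lay above both W1118 libraries for 69 genes and below them for 4, against 37.3% and 32% of all tested genes. Both subunits were represented, with 30 of 53 large-subunit genes higher at a median of 0.41 and 22 of 35 small-subunit genes higher at a median of 0.40.

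The rises were mostly below 2-fold. RpS21, a small-subunit protein, stood at 695.4 and 561.4 CPM in the mutant, against 256.3 and 245.2 CPM in W1118 (log2 difference 1.33, SE 0.14, adjusted p = 4.22e-05, edgeR). RpS23, a protein of the decoding centre, stood at 2181 and 2337 CPM in the mutant, against 994.9 and 949.2 CPM in W1118 (1.22, SE 0.10, adjusted p = 3.96e-06, edgeR). RpS10b stood at 1166 and 1181 CPM in the mutant, against 649.0 and 574.7 CPM in W1118. In all of these the groups were well apart. RpS20, RpL12, RpS19a, RpL14 and RpL18 rose by a log2 of 0.89, 0.88, 0.87, 0.86 and 0.84. RpL12 sits at the base of the stalk. sta and Rack1 also rose, by 0.56 and 0.61.

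Of the remaining functional classes, the ubiquitin fusion RpS27A rose by a log2 of 0.46, while the other fusion, RpL40, was at 0.22 and was not called. RpS6 rose by 0.37. RpS3, which lines the mRNA entry, was at 0.06 (SE 0.09) and was not called.

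RpL8, RpLP2 and RpL41 were the genes that fell. RpL8, next to the peptidyl transferase centre, stood at 469.7 and 539.7 CPM in the mutant, against 946.8 and 909.7 CPM in W1118 (-0.88, SE 0.10, adjusted p = 5.76e-05, edgeR). Its fall kept its call in every alternative run, including the one with attp2 as the control. RpLP2 stood at 511.2 and 718.9 CPM in the mutant, against 971.5 and 901.4 CPM in W1118 (-0.61, SE 0.14, adjusted p = 0.00734, edgeR). Of the other stalk proteins, RpLP1 rose by 0.49, and RpLP0, at 0.15, was not called. RpL41 stood at 1294 and 1334 CPM in the mutant, against 1641 and 1943 CPM in W1118 (-0.45, SE 0.13, adjusted p = 0.0217, edgeR). With attp2 as the control RpLP2 and RpL41 were instead higher in the mutant, by a log2 of 0.43 and 0.85.

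The direction of the mutant result depended on the wild-type stock. With attp2 in place of W1118, 18 genes were higher and 47 lower in the mutant, and RpS23 differed by -0.08 and RpS20 by -0.83 on the log2 scale. Against W1118, the count of 52 fell when any 1 library was left out, and so did the count of higher genes over all tested genes. The median log2 difference was 0.46 without mutant replicate 1 and 0.30 without mutant replicate 2. It was 0.43 without W1118 replicate 1 and 0.37 without W1118 replicate 2, against 0.03 to 0.05 for all tested genes in these fits. The same exchange in the knockdown, with W1118 in place of attp2, gave 53 genes higher and 14 lower. Shares of all tested genes with the exchanged controls are not given here. The stocks themselves differed for 55.5% of all tested genes, so these counts are not read as particular to ribosomal protein genes. The 5 listed hemocyte genes summed to 665 and 566.3 CPM in the mutant, against 354.6 and 359.7 CPM in W1118. Of them 3 were higher and none was at 0. The sum was again mostly vkg, Cg25C and srp, at 329.7, 167 and 111.5 CPM in the mutant. Hml averaged 3.7 CPM and Pxn 3.8 CPM there. Chorion and vitelline membrane RNA was at 17920 and 22550 CPM in the mutant, against 19220 and 18220 CPM in W1118, with 4 of 17 genes higher, 4 lower and none at 0. The part of both in the result was not tested.

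**Figure D4:**
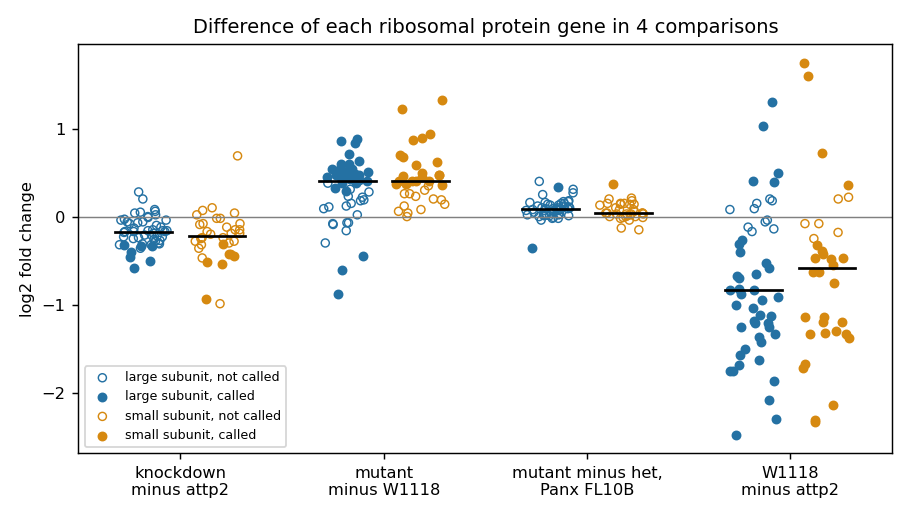
Log2 fold change of each of 85 ribosomal protein genes (mean of at least 10 CPM) in 4 comparisons, split by subunit; filled points passed an adjusted p of 0.05 (edgeR) and black lines are medians of the points shown. The mutant minus W1118 values lie mostly above 0, the tethered comparison is the narrowest, and W1118 minus attp2 reaches from -2.48 to 1.75.

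With Panx tethered to FL10B, loss of nxf2 left these mRNAs nearly level. Of 88 tested genes 3 were higher and 1 lower in the tethered mutant than in the tethered heterozygote (edgeR, adjusted p below 0.05), or 3.41% and 1.14%, against 9.27% and 10.2% of all tested genes (19.5% in either direction). RpL22-like, 1 of the 3, passed the filter on low counts only through the tethered mutant libraries. The others were RpL28 and RpS16. Among genes with a mean of at least 100 CPM, 16.6% were higher and 9.54% lower. 8 of the 88 had an unadjusted p under 0.05. The log2 difference was within 0.2 of 0 for 77 of 88 genes, and its SE was between 0.09 and 0.36 for genes of at least 10 CPM, with a median of 0.11. The median was 0.08, against -0.01 for all tested genes, and 75 of 88 values were positive. Both mutant libraries lay above both heterozygote libraries for 45 genes and below for 2, against 34.2% and 35.4% of all tested genes.

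RpL8 again was the gene that fell, to 767.0 and 727.3 CPM in the tethered mutant, against 916.5 and 1003 CPM in the tethered heterozygote (-0.36, SE 0.10, adjusted p = 0.0191, edgeR). RpL28 stood at 370.4 and 388.5 CPM in the tethered mutant, against 284.2 and 315.8 CPM in the tethered heterozygote (0.34, SE 0.10, adjusted p = 0.0325, edgeR). RpS16 stood at 131.5 and 145.1 CPM in the tethered mutant, against 110.1 and 103.4 CPM in the tethered heterozygote (0.37, SE 0.12, adjusted p = 0.0439, edgeR). The groups did not overlap for any of the 3 genes, but all 3 calls were lost when any 1 of the 4 libraries was left out. A fit of these 4 libraries alone called 31 genes higher and 2 lower. Of all 7973 genes tested in that fit, 1920 were higher and 1770 lower. The main fit estimated the spread of each gene once over all 6 groups. The median absolute log2 gap between replicates was 0.05 in the tethered mutant and 0.08 in the tethered heterozygote. It was 0.17 in the knockdown and 0.16 in attp2. The counts of calls in these comparisons are therefore not on an equal footing.

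RpL22-like, a duplicate of RpL22 known in flies mainly from the male germline, showed the only called rise of at least 2-fold. It had 64 and 48 counts in the tethered mutant, against 3 and 4 counts in the tethered heterozygote, a ratio of 13 (95% exact interval 6.08 to 33.0, counting error only), and a fitted log2 difference of 3.65 (SE 0.57, adjusted p = 0.000895, edgeR). It passed the filter on low counts only through the tethered mutant libraries, so its p-value is conditional on that group being high. The alternative filter at a mean of 5 CPM left it out. In the other 8 libraries it had 0 to 3 counts. RpL37b, another low duplicate, passed the filter in the same way. It had 17 and 12 counts in the tethered mutant, against 3 and 2 counts in the tethered heterozygote. The ratio was 4.70 (1.8 to 15.5), and the gene was not called (adjusted p = 0.0603, edgeR). The 7 testis genes summed to 4.64 and 4.03 CPM in the tethered mutant, against 1.7 and 2.5 CPM in the tethered heterozygote, 4 of them at 0 in each group, and their part in the rise was not tested. Chorion and vitelline membrane RNA was at 3980 and 4014 CPM in the tethered mutant, against 24990 and 25220 CPM in the tethered heterozygote, with all 17 genes lower and none at 0. Muscle RNA, from 7 genes, was at 390.1 and 406 CPM in the tethered mutant, against 215.5 and 214.7 CPM in the tethered heterozygote, with 3 genes higher and none at 0. The part of these differences in the results was not tested.

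The nxf2 effects were set against each other by testing their difference. The effect in the mutant exceeded that in the knockdown for 53 genes and fell short of it for 2, or 60.2% and 2.27%, against 14.5% and 12.5% of all tested genes (27.0% in either direction). RpS21 differed by a log2 of 1.78 (SE 0.20, adjusted p = 0.000102, edgeR) and RpL8 by -0.78 (SE 0.14, adjusted p = 0.00171, edgeR). The effect with tethered Panx was below that in the mutant for 19 genes and above it for 2, or 21.6% and 2.27%, against 12% and 9.26% of all tested genes (21.2% in either direction). Without either replicate of the tethered mutant the 19 became 12, and without W1118 replicate 2 or tethered heterozygote replicate 2 it became 11. Both effects in these tests have their own controls, which are different stocks or genotypes. Of the 14 genes lower in the knockdown, 7 were higher in the mutant, which is 50% of the first list and 13.5% of the 52 in the second. Over all 88 tested genes, 59.1% were higher in the mutant and 15.9% lower in the knockdown. The overlap was thus near these shares and marks no separate set of genes. RpL41 was lower in both, though not in the mutant with attp2 as the control.

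In several duplicated pairs the balance of the copies differed between groups, which is given here as a description, with no test. RpL22-like, described above for its rise with tethered Panx, made up 2.09% and 1.84% of RpL22 plus RpL22-like counts in the tethered mutant, against 0.159% and 0.153% in the tethered heterozygote. RpL22 itself was not called (log2 difference 0.01, SE 0.11, adjusted p = 0.973, edgeR). In the other 8 libraries the share was between 0% and 0.145%.

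RpS14a and RpS14b are neighbouring copies that encode the same protein, so reads could be split between them. RpS14b made up 25.0% and 27.3% of their sum in the knockdown, against 28.8% and 23.4% in attp2, and 10% and 9.53% in the tethered mutant, against 12% and 11.3% in the tethered heterozygote. Counted as 1 feature, the pair was lower in the knockdown by a log2 of -0.95 (SE 0.26, adjusted p = 0.0399, edgeR). RpS15Ab was the minor copy throughout, at 7.78% and 8.57% in the mutant and 9.25% and 9.18% in W1118, but 2.53% and 2.48% in the tethered mutant and 2.68% and 2.72% in the tethered heterozygote. It was 3.33% and 3.46% in the knockdown and 4.24% and 3.34% in attp2.

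Some duplicates are relatives of yeast ribosome assembly factors rather than of ribosome parts, among them RpL24-like (yeast Rlp24), RpL7-like (yeast Rlp7) and RpLP0-like (yeast Mrt4). RpL24-like made up 20.6% and 20.8% of RpL24 plus RpL24-like counts in the knockdown and 19.2% and 23.7% in attp2, but 44.3% and 45.7% in the mutant and 50.5% and 52.0% in W1118. With tethered Panx it made up 43.3% and 42.5% in the mutant and 40.2% and 39.8% in the heterozygote. RpL24 itself was what moved between the stocks, at -2.08, since RpL24-like was at -0.14 and was not called. With tethered Panx the log2 differences of RpL24-like, RpL7-like and RpLP0-like were 0.25, 0.27 and 0.40, and none was called. RpS19b had 4 and 5 counts in the mutant, 0 and 0 in W1118, and 16 and 15 in attp2. It was called higher in the mutant than in W1118 (log2 difference 5.11, SE 1.5, adjusted p = 0.0245, edgeR). That call rests on these few counts. The exact interval for the ratio of the mutant to W1118 began at 1.24 (counting error only). With 3 counts set for the W1118 group the ratio was 1.88, which is not a lower limit. Intervals on these shares cover counting error only.

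**Figure D5:**
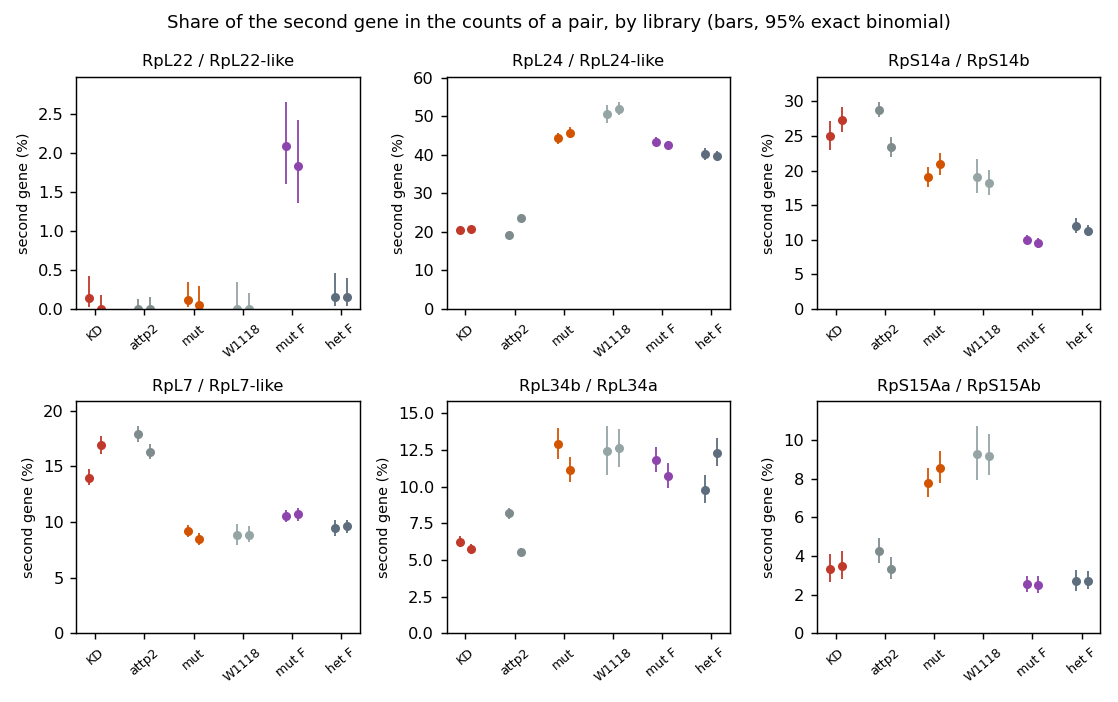
Share (%) of the second gene in the summed counts of 6 duplicated pairs in each library, with 95% exact binomial intervals (counting error only); KD, mut, mut F and het F are as for the levels of 9 genes. RpL24-like lies between 19.2% and 23.7% in the knockdown and attp2 and between 39.8% and 52.0% in the other 8 libraries.

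Genes for ribosome assembly and growth control were called more often than the ribosomal protein genes in the tethered comparison, a difference that was not itself tested. Of 44 tested genes for ribosome assembly and RNA polymerase I, 16 were higher and 0 lower in the tethered mutant, with a median log2 difference of 0.34. Of all tested genes 9.27% were higher and 10.2% lower, with a median of -0.01. RpI135, a subunit of RNA polymerase I, averaged 224.2 ± 10.3 CPM in the tethered mutant and 142.2 ± 6.58 CPM in the tethered heterozygote (0.66, SE 0.12, adjusted p = 0.00162, n = 2 each, edgeR). dm, the fly Myc gene and a driver of ribosome assembly genes, averaged 1097 ± 45.7 CPM in the tethered mutant and 599.1 ± 0.638 CPM in the tethered heterozygote (0.87, SE 0.11, adjusted p = 8.89e-05, n = 2 each, edgeR). Of 24 growth and translation control genes 8 were higher and 1 lower. Xrp1, which in flies is induced when a ribosomal protein gene copy is lost, averaged 368.6 ± 9.84 CPM in the tethered mutant and 130 ± 13.7 CPM in the tethered heterozygote (1.51, SE 0.11, adjusted p = 3.26e-07, n = 2 each, edgeR). 4 of 11 genes of that response were higher and 0 lower.

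In the mutant against W1118, 15.0% of all tested genes were higher and 11.8% lower. There 10 of the 44 assembly genes were higher and 3 lower, with a median of 0.23, and 5 of the 11 response genes were higher and 2 lower. Of the 24 growth control genes 6 were lower, 2 higher and 16 not called, with a median of -0.15. InR, the insulin receptor gene, averaged 109.6 ± 23.9 CPM in the mutant and 201.4 ± 13.7 CPM in W1118 (-0.88, SE 0.15, adjusted p = 0.000911, n = 2 each, edgeR). Thor, which encodes the translation inhibitor 4E-BP, rose by 0.64. Both differences depended on the wild-type stock. In attp2, InR averaged 100.6 ± 15.7 CPM, near the mutant. Thor averaged 110.7 ± 25.6 CPM in attp2, above the 46.1 ± 4.47 CPM of the mutant. The counts of these lists were not repeated with the other stock as the control. Elongation factors and related mRNAs, which share translational control with ribosomal protein mRNAs in animals, had 4 of 11 higher and 0 lower, with a median of 0.24.

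In the knockdown against attp2, 3 of the 44 assembly genes were higher and 3 lower, and 0 of 11 elongation genes were called, against 8% higher and 7.70% lower of all tested genes. The assembly genes were thus near the background. Of the 24 growth control genes 3 were higher, among them raptor, a partner of TOR kinase, at 0.43. Another was larp, whose human relative binds ribosomal protein mRNAs, at 0.34. The last was gig, at 0.39. In W1118 raptor averaged 279.2 CPM and larp 1321 CPM, against 228.6 and 1441 CPM in the knockdown. Trf2, which in flies starts transcription at ribosomal protein promoters, was higher in the knockdown (0.32, SE 0.09, adjusted p = 0.0306, edgeR). It was also higher in the tethered mutant (0.32, SE 0.09, adjusted p = 0.0256, edgeR), and lower in the mutant (-0.37, SE 0.09, adjusted p = 0.00921, edgeR). Its level in the knockdown (975.7 CPM) and in the mutant (876.6 CPM) lay between attp2 (780.6 CPM) and W1118 (1134 CPM). Its direction in both therefore depended on the stock.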

How the data were processed

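Per the submitters' processing notes, reads were handled with bcl2fastq 1.8.4 and cutadapt 1.16 and aligned with STAR 2.5.2a to dm3; featureCounts 1.6.1 is named for 8 of the 12 libraries, and no source used here names a counting tool for the 4 with tethered Panx, or a strand setting. Per the labels' protocols, cDNA was primed with not-so-random (NSR) primers. The values are raw gene counts as deposited by the authors, and 3811630 to 11260925 per library set the precision.

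All 12 libraries entered 1 edgeR 4.0.16 fit (R 4.3.3, limma 3.58.1; TMM, filterByExpr, robust quasi-likelihood, 6 groups, 6 residual degrees of freedom), with 8638 of 15446 genes tested and Benjamini-Hochberg adjustment over them. Steps were tested on simulated data. The ribosomal protein genes and all lists were chosen with earlier results of these data known. Genes named were the duplicated, stalk and ubiquitin-fusion genes, RpS3, RpS6 and RpL41; the 8 largest called changes in each direction without overlap and at 10 CPM or more; and the 5 widest and 5 narrowest ranges. RpS2 and the 9 plotted genes were picked after their values were seen. Some genes of the set are counted but not reported singly here. Of each pathway list the called genes with the smallest p were eligible. Names, arms and exon lengths came from a BDGP6 annotation, which matched all 92 genes, 90 by symbol and the others by synonym; since the counts use dm3, no coordinates are given. Promoter and protein sequences were not analysed here. Alternatives covered scaling, filter, DESeq2 1.42.0, a replicate block, single comparisons, left-out libraries, the other wild type and, added after seeing the data, RpS14a and RpS14b as 1 feature.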

Additional observations from a re-analysis of the deposited data

Results flagged for a closer look

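Differences between nxf2 effects were picked out because the difference itself passed its test (edgeR, adjusted p below 0.05). Between the mutant effect, set against W1118, and the knockdown effect, set against attp2, 53 ribosomal protein genes were higher and 2 lower. Among genes of at least 10 CPM, the largest of these log2 differences were 1.78 for RpS21, 1.47 for RpS23, 1.17 for RpS14a, 1.03 for RpL36 and for RpS10b, 1.02 for RpL18 and 1.01 for RpS26. RpS19b, below that level, was at 4.97 (SE 1.62), which rests on few counts. RpLP2, at -0.80, and RpL8, at -0.78, went the other way. Between the effect with tethered Panx and the mutant effect, 2 genes were higher and 19 lower. The 2 were RpL41, at 0.60, and RpL8, at 0.52. The largest log2 differences among the 19 were -1.30 for RpS21, -1.18 for RpS23, -0.92 for RpS20, -0.90 for RpS10b, -0.88 for RpL12, -0.87 for RpS19a and -0.84 for RpL14. Groups of 2 libraries were too small to look for single samples that stand apart.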

How the results depend on the processing

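With 2 libraries a group, most counts moved when a library was left out. Leaving out each library in turn gave 0 to 1 genes higher and 0 to 24 lower for the knockdown, 20 to 47 higher and 1 to 3 lower for the mutant, 1 higher and 0 lower throughout for the tethered mutant, 7 to 12 higher and 51 to 62 lower for W1118 against attp2, 36 to 59 higher and 1 to 3 lower for the mutant effect minus the knockdown effect, and 0 to 4 higher and 11 to 24 lower for the tethered effect minus the mutant effect. In the knockdown, 23 genes were lower with upper-quartile scaling, 35 with library totals and 0 in a fit of its 4 libraries. The split over all genes there was 691 higher and 665 lower with TMM, 568 and 822 with upper-quartile scaling, and 479 and 1008 with library totals. In the fit of its 4 libraries it was 124 and 64 of 8224 genes. Fits of single comparisons gave 31 higher and 2 lower for the tethered mutant, and 5 higher and 37 lower for the tethered effect minus the mutant effect. Over all genes tested in those fits, 1920 were higher and 1770 lower of 7973, and 1606 higher and 1554 lower of 8287. The tethered effect minus the mutant effect had 4 higher with DESeq2's size factors, upper-quartile scaling, a 5 CPM filter or DESeq2, against 2. Without the 5 genes with the most counts the mean share was 6.04% in the knockdown, 7.08% in attp2, 5.74% in the mutant, 4.53% in W1118, 6.58% in the tethered mutant and 6.42% in the tethered heterozygote. The cause of these shifts was not tested.

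The other wild type changed most, and shares of all tested genes with it as the control are not given here. With W1118 as the control 53 genes were higher in the knockdown, and the log2 difference turned for RpS26 (0.79), RpS21 (0.68), RpS10b (1.25), RpL7-like (0.81), RpL24 (1.83), RpL34a (1.28), RpL34b (2.44), RpLP0 (0.67), RpLP2 (-0.84) and RpS3 (1.00). With attp2 as the control 18 genes were higher and 47 lower in the mutant, and it turned for RpS23 (-0.08), RpS10b (-0.40), RpS20 (-0.83), RpL14 (-0.40), RpL18 (-0.52), RpLP2 (0.43), RpL41 (0.85), RpS14b (-0.96), RpS19b (-1.37), RpL7-like (-0.65), RpL24 (-1.54), RpL34a (-1.04), RpL34b (-1.94), RpLP0 (-0.55), RpS27A (-0.09), RpL40 (-1.35) and RpS3 (-1.14).

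With the replicate number as a block, the knockdown had 0 genes higher and 13 lower, the mutant 54 and 3, the tethered mutant 3 and 1, and W1118 against attp2 9 and 60. Same-numbered libraries did not deviate together over all tested genes (r from -0.13 to 0.08). Over the ribosomal protein genes alone r ran from -0.49 to 0.41. Whether same-numbered libraries of some groups were handled together is not in the labels and was not tested. Over 97 named and called results, 1233 of 1424 alternatives kept direction and call, 176 lost the call and 15 turned. Depth limits the rare copies, for which 3 counts equal 0.275 to 0.772 CPM. The planned promoter motif count was not run.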
